A study of Homo sapiens with 6 samples.

Results

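The CEP genes encode centrosomal proteins that are named by their approximate size, and they were described here in the established human cell line SW-1990, a pancreatic adenocarcinoma taken from a splenic metastasis. Members were all genes whose single annotated symbol began with CEP and a digit, which gave 38 of 19775 genes, read by 112 probe sets. Where a gene had several probe sets, the brightest on average across the 6 arrays stood for it. Of the 38, 35 are protein-coding genes, CEP192P1 is a pseudogene, and CEP72-DT and CEP83-DT are divergent non-coding transcripts. CEP83 was not analysed here, and CEP170, whose probe sets also match a pseudogene, was outside the rule.

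The centrosome holds a pair of centrioles, which are short microtubule barrels, in a pericentriolar matrix from which microtubules grow. In each cell cycle a new centriole is built beside each old one, and the older centriole carries distal and subdistal appendages. In a resting cell that centriole can dock at the membrane and serve as the base of a primary cilium. Pancreatic ductal epithelium carries primary cilia, and their loss is well known in pancreatic cancer.

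The knockdown cells (sh-PRLR) carried a lentiviral short hairpin RNA against PRLR, the prolactin receptor, and the control cells (sh-Ctrl) carried a scrambled one. All 6 cultures were treated with puromycin at 1 μg/ml for more than 7 days, and each group had 3 arrays, given in the labels as biological replicates. The labels name neither the hairpin sequence nor whether the cells were clones or pools. The study set out to find transcripts that respond to loss of PRLR. Levels are log2 values, changes are differences of log2 means with sh-Ctrl subtracted from sh-PRLR, and errors are the SD of 3 arrays unless given as SE.

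PRLR averaged 4.17 ± 0.22 in sh-PRLR and 5.02 ± 0.22 in sh-Ctrl over its 7 probe sets, which is -0.85 (p = 0.1 by an exact permutation test, two-sided, and groups of 3 and 3 can give no smaller p). None of the 7 passed limma singly, and 2 had an unadjusted p under 0.05. At its brightest probe set, the choice made for other genes, PRLR changed by only -0.23. There the groups overlapped and the gene did not pass (limma adjusted p = 0.811). All 7 probe sets were lower on average in sh-PRLR, though all lay below the median gene level of 7.23. Pairs of arrays correlated over all genes at 0.950 to 0.957, with pairs of different groups reaching 0.953, and no array stood apart. The 6 epithelial markers lay at 7.64 to 15.29, and of them CDH1, E-cadherin, passed the test as lower, whereas 12 of the 14 measured fibroblast, leukocyte and endothelial markers lay below the median gene level. Here and below a gene passed at an adjusted p under 0.05 in a limma fit of all genes whose variance could depend on intensity, and a single probe set passed likewise in a fit of all 41091 probe sets with 1 gene symbol.

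In sh-PRLR cells CEP120 and CEP20 were modestly higher and CEP128 was lower, while the other 35 CEP genes did not pass the test. CEP120, which lengthens new centrioles, rose by 0.42 on the log2 scale. CEP20, a small basal body and satellite protein, rose by 0.33. CEP128, a component of subdistal appendages, fell by 1.31, which left it at 0.403 of its sh-Ctrl level. In RNA from whole cultures, a change in the share of cells that hold a transcript cannot be told apart from a change in its amount per cell. By number of calls the family was close to the average gene, since 3 of 38 passed, 7.89%, against 7.66% of all genes (3.34% higher and 4.32% lower). With limma's default settings, which use neither the dependence on intensity nor the robust variance estimate, 0 of 38 passed, against 0.0202% of all genes, and 6 of 38 had an unadjusted p under 0.05, against 16.2%. In fits added after seeing the data, 3 passed with the dependence on intensity alone and 0 with the robust estimate alone. Among genes at or above the median level, where replicates scatter less, 14.6% passed, against 9.38% of the 32 CEP genes in that range.

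**Figure D1:**
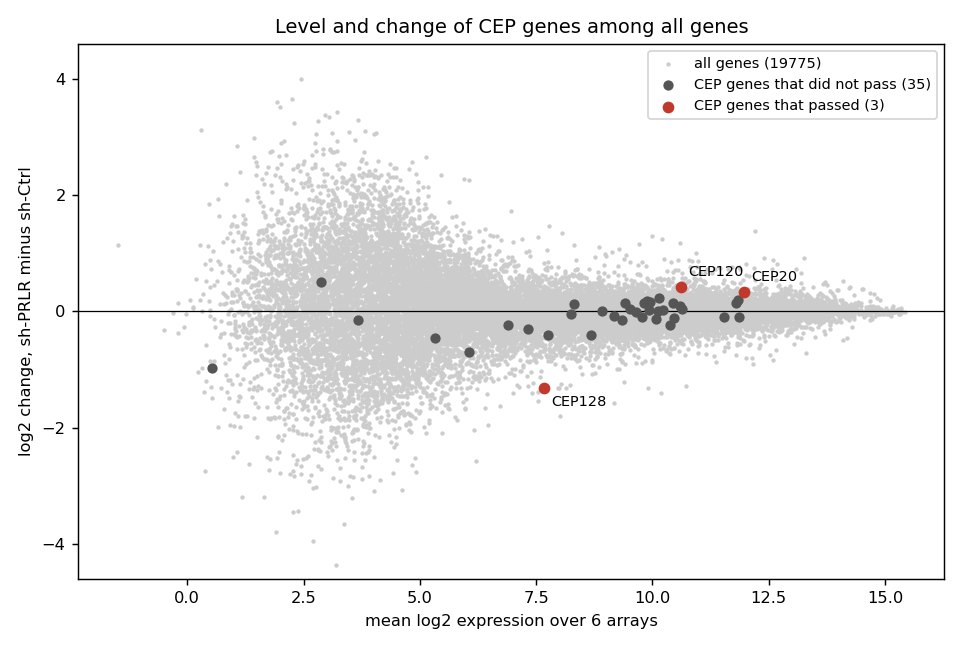
Log2 change (sh-PRLR minus sh-Ctrl) against mean log2 expression over 6 arrays for all 19775 genes in grey, the 35 CEP genes that did not pass in dark grey and the 3 that passed in red. Most CEP genes lie to the right of the median gene level of 7.23 and close to 0, and CEP128 stands below them at -1.31.

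Stretches of 250 bases before 1 RefSeq transcript start of each of the 3 genes that passed are shown because the family's changes rest on these genes (GRCh38.p14, minus strand, 5′ to 3′). For CEP20 that start is the outer end of the gene. For CEP120 it lies 439 bases inside the gene's annotated span and for CEP128 17764 bases inside, so that these stretches are not the sequence before the outermost start. Capitals mark matches, on either strand, to 6 short motifs. These were the box spelled CCAAT, the cell cycle homology region (CHR) spelled TTTGAA, and GTTGCC, a single arm of the RFX sites that many cilium genes carry. The others were the GAS element TTCNNNGAA, which STAT5 binds downstream of the prolactin receptor, the loose E2F site TTTNNCGC and the NRF1 core CGCNTGCG. No motif was matched in the CEP128 stretch, which says nothing of the sequence before the gene's outermost start.
CEP120, chr5:123423404-123423653: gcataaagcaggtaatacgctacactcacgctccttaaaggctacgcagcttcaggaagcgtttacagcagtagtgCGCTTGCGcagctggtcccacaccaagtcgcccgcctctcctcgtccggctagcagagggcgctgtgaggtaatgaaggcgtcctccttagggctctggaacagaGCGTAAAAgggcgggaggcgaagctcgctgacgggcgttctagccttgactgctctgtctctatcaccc
CEP20, chr16:15888604-15888853: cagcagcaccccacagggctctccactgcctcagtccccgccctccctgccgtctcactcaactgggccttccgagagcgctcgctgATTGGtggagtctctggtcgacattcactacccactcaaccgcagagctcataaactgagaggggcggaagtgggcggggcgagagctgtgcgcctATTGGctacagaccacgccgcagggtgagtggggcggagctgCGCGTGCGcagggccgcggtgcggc
CEP128, chr14:80941739-80941988: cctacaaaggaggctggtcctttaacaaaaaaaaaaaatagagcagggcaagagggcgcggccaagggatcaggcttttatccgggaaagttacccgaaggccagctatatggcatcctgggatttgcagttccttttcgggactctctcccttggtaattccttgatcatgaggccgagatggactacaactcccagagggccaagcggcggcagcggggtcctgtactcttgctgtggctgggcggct

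The CEP120 stretch held an NRF1 match from 174 to 167 bases before the start and a loose E2F match (GCGTAAAA) from 69 to 62 bases before it. The CEP20 stretch held a pair of CCAAT matches, at 163 to 159 and at 67 to 63 bases before the start, and an NRF1 match at 25 to 18. Promoters of 33 members were found in the RefSeq table, and for 7 of them the start used lay inside the gene's span, by up to 365682 bases. Each member was counted once, whereas the shares over all and over protein-coding promoters count every entry, where a gene may recur. A CCAAT match was present in 51.5% of them, against 32.0% of all 35116 promoters and 32.7% of 22199 protein-coding ones. The NRF1 core was in 24.2% of member promoters, against 8.69% of all promoters and 11.2% of protein-coding ones, and the E2F motif in 18.2%, against 5.92% of all and 7.21% of protein-coding ones. The member promoters include those of the non-coding CEP72-DT and CEP83-DT. The stretches of CEP72 and CEP72-DT overlap and both held an NRF1 match, so a shared site would count for each. CHR was matched in 24.2% of member promoters, against 13.3% of all and 11.0% of protein-coding ones, and the RFX arm in 21.2%, against 10.2% of all and 10.5% of protein-coding ones. The GAS element was matched in 0 of the 33, against 6.57% of all promoters and 5.92% of protein-coding ones. Member promoters were also richer in G and C, with a median of 65.6% against 62.0% over protein-coding and 58.0% over all promoters, and how far that sets the matches was not tested. A match is a description of letters and shows no binding.

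Over the whole family, 18 genes were above 0 and 20 below. The median change was -0.0016, against -0.0013 over all genes. The quartiles of the family were -0.15 and 0.14, against -0.23 and 0.24 over all genes. Among genes at or above the median gene level they were -0.11 and 0.15 for CEP genes, against -0.16 and 0.11 for all. Their probe sets were mostly bright, in a signal that depends on the probes as well as on the RNA, with a median level of 9.80 against 7.23 over all genes, and 32 of 38 lay at or above the median gene level. The 6 below it were CEP131, CEP126, CEP83-DT, CEP192P1, CEP15 and CEP72-DT, and the last at 0.54 was the dimmest. The groups did not overlap for 10 of 38 genes, 5 in each direction, which is 26.3% against 25.8% of all genes (11.7% higher and 14.1% lower). An unadjusted p under 0.05 was reached by 9 of 38, which is 23.7% against 20.3% of all genes. At or above the median gene level both shares were lower in the family than among all genes there. They were 31.2% against 38.9% for groups that did not overlap, and 28.1% against 33.8% for the unadjusted p.

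**Figure D2:**
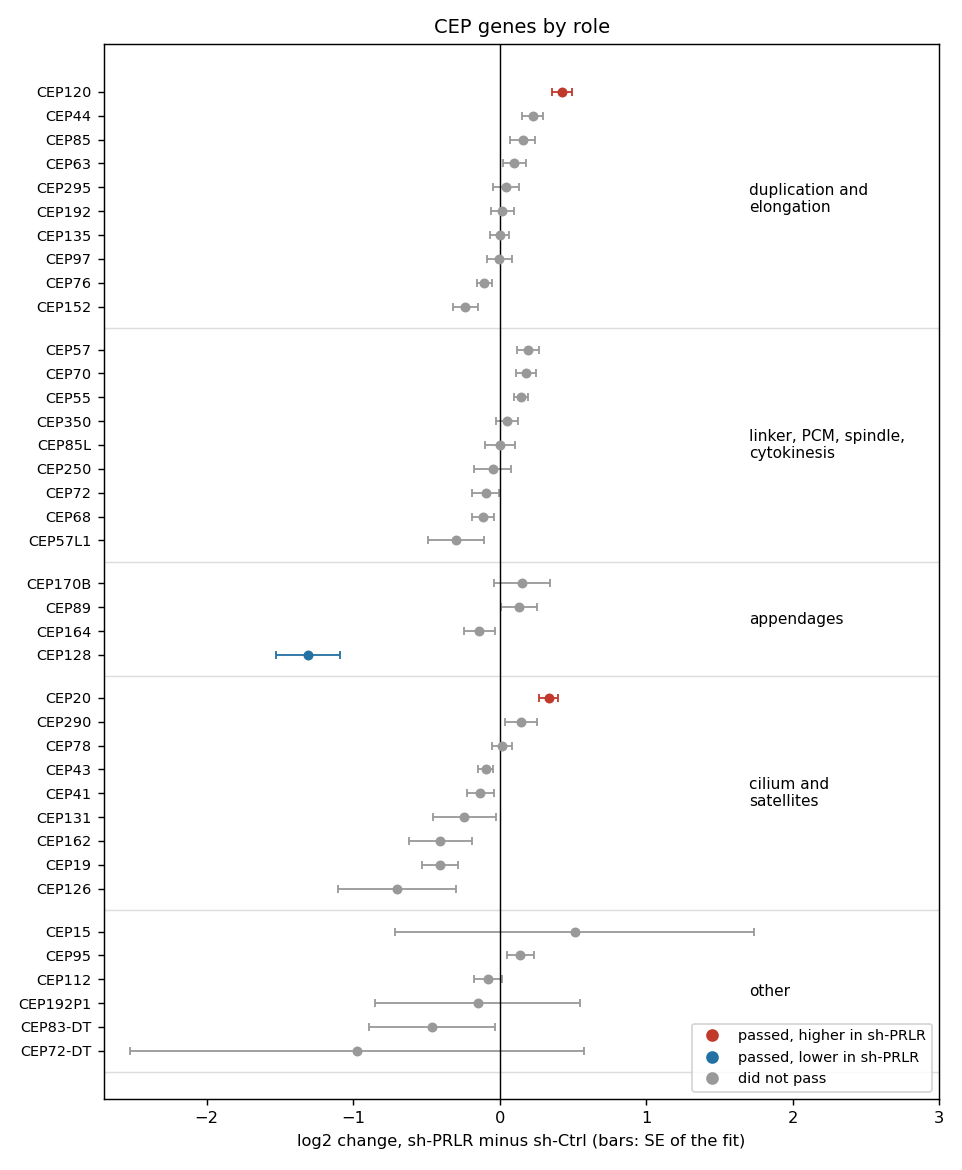
Log2 change (sh-PRLR minus sh-Ctrl) of the 38 CEP genes, ordered by role, with the SE of the fit as bars. CEP120 (0.42) and CEP20 (0.33) passed as higher and CEP128 (-1.31) as lower, and wide bars mark dim genes such as CEP72-DT and CEP15.

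Among the 10 genes of centriole duplication and elongation, 1 rose, 0 fell and 9 did not pass, with a median change of 0.03. That is 10% passing, against 7.66% of all genes and 14.6% of genes at or above the median gene level, where all 10 lay. CEP120 (probe set 226449_at, chromosome 5, 123344892 to 123423842, GRCh38.p14) had 10.77, 10.87 and 10.82 in sh-PRLR, against 10.41, 10.32 and 10.46 in sh-Ctrl. Every sh-PRLR array was thus above every sh-Ctrl array, by more than the spread within either group. The change was 0.42 (SE 0.07, limma adjusted p = 0.00389). Its dimmer probe set 1554606_at read 9.63, 9.56 and 9.66 in sh-PRLR against 9.35, 9.37 and 9.43 in sh-Ctrl, a change of 0.23 that missed the threshold (limma adjusted p = 0.156). The direction was the same in both probe sets, with no overlap between groups in either.

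The scaffolds that bring the kinase PLK4 to the parent centriole did not pass. CEP152 was at 10.25 ± 0.11 in sh-PRLR and 10.48 ± 0.14 in sh-Ctrl (-0.23, limma adjusted p = 0.157), and CEP192 at 10.24 ± 0.08 and 10.22 ± 0.10 (0.02, limma adjusted p = 0.937). CEP63, which binds CEP152, had a change of 0.10. CEP135, a component at the base of the centriole cartwheel, was at 10.13 ± 0.03 in sh-PRLR and 10.13 ± 0.03 in sh-Ctrl, the smallest change of the 38 genes. CEP44, needed for centrioles to become centrosomes, was at 10.26 ± 0.07 in sh-PRLR and 10.03 ± 0.02 in sh-Ctrl (0.22, limma adjusted p = 0.0848).

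CEP76, which limits repeated centriole duplication, was among the 3 brightest members. It had 11.76, 11.80 and 11.87 in sh-PRLR, against 11.88, 11.96 and 11.90 in sh-Ctrl. The groups were separated by a narrow gap, and the change of -0.10 did not pass (SE 0.05, limma adjusted p = 0.314). CEP97, which caps centrioles together with CCP110, had a change of -0.003, CEP295, which helps turn centrioles into centrosomes, of 0.04, and CEP85, a binding partner of STIL, of 0.16.

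Of the 9 genes of the centriole linker, the pericentriolar matrix, the spindle and cytokinesis, 0 passed in either direction, with a median change of 0.004. An unadjusted p under 0.05 was reached by 3, which is 33.3% against 20.3% of all genes. All 9 lay at or above the median gene level, where the share of all genes was 33.8%. CEP57, which organises pericentriolar matrix and spindle microtubules, had 12.00, 11.93 and 11.85 in sh-PRLR, against 11.62, 11.68 and 11.90 in sh-Ctrl (probe set 203493_s_at). The third sh-Ctrl array lay within the sh-PRLR range, so the groups overlapped, and the change of 0.19 did not pass (SE 0.08, limma adjusted p = 0.167). Without that array it was 0.27 (limma adjusted p = 0.0503, in a range of 0.00713 to 0.470 over 14 alternatives). CEP55, which brings the abscission machinery to the midbody, had 11.87 ± 0.03 in sh-PRLR and 11.72 ± 0.02 in sh-Ctrl. The groups did not overlap, but the change of 0.15 did not pass (SE 0.05, limma adjusted p = 0.111). In its brightest probe set CEP70, a centrosomal microtubule organiser, was likewise apart between groups, with 9.96 ± 0.02 in sh-PRLR, 9.78 ± 0.03 in sh-Ctrl and a change of 0.18 (limma adjusted p = 0.177). Of its 5 probe sets 4 were higher in sh-PRLR. The bright 219036_at was lower without overlap, at 9.53 ± 0.15 in sh-PRLR and 9.75 ± 0.07 in sh-Ctrl (-0.22, limma adjusted p = 0.267).

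CEP250, the main fibre protein that links the parent centrioles, had a change of -0.05, and its linker partner CEP68 one of -0.12. The matrix protein CEP72 had -0.09, CEP350, a microtubule anchoring protein, 0.05, and CEP85L, a pericentriolar protein, 0.004. CEP57L1, a paralog of CEP57, was lower by 0.30 in the mean (7.17 ± 0.27 in sh-PRLR and 7.47 ± 0.08 in sh-Ctrl) but did not pass (limma adjusted p = 0.443).

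Of 4 appendage genes, 1 fell and 3 did not pass. With so few genes this is 25%, against 7.66% of all genes and 14.6% of genes at or above the median gene level, where all 4 lay. CEP128 (probe set 244033_at, chromosome 14, 80476969 to 80959502, GRCh38.p14) had 7.51, 6.85 and 6.66 in sh-PRLR, against 8.46, 8.25 and 8.23 in sh-Ctrl. The highest sh-PRLR array stayed below the lowest sh-Ctrl array, although the sh-PRLR arrays scattered more widely. The change was -1.31 (SE 0.22, limma adjusted p = 0.00549). With all its probe sets averaged the change was -0.50 and no longer passed (limma adjusted p = 0.356, in a range of 0.00132 to 0.356 over 15 alternatives). One end of CEP128 overlaps TSHR, the thyrotropin receptor gene, which was at 1.84 in sh-PRLR and 2.13 in sh-Ctrl and did not pass (limma adjusted p = 0.898).

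The distal appendage genes did not pass. CEP164, which starts ciliary docking, was at 9.27 ± 0.19 in sh-PRLR and 9.41 ± 0.06 in sh-Ctrl (-0.14, limma adjusted p = 0.535), and CEP89 at 8.38 ± 0.06 and 8.25 ± 0.12 (0.13, limma adjusted p = 0.619). CEP170B, a paralog of the subdistal appendage gene CEP170, had a change of 0.15 and was read by 1 probe set that scattered widely in sh-PRLR (SD 0.47). The differences between CEP128 and these genes were not tested.

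Of 9 genes of the cilium, its transition zone and the centriolar satellites, 1 rose, 0 fell and 8 did not pass. That is 11.1% passing, against 7.66% of all genes, and 14.6% of genes at or above the median gene level, where 7 of the 9 lay. The median change was -0.13, with 6 of 9 below 0. CEP20 (probe set 225087_at, chromosome 16, 15865719 to 15888603, GRCh38.p14) was the brightest of the family. It had 12.18, 12.12 and 12.08 in sh-PRLR, against 11.88, 11.85 and 11.65 in sh-Ctrl. No array of one group reached the other, and the change was 0.33 (SE 0.07, limma adjusted p = 0.0142). Without the second sh-PRLR array the change was 0.34 and just missed the threshold (limma adjusted p = 0.0505, in a range of 0.00594 to 0.222 over 15 alternatives). Its second probe set, 225088_at, read 10.91, 10.85 and 10.85 in sh-PRLR against 10.44, 10.34 and 10.27 in sh-Ctrl, a larger change of 0.52 (limma adjusted p = 0.0022). CEP43, also called FOP and related to CEP20 in sequence, had 11.49 ± 0.03 in sh-PRLR and 11.58 ± 0.01 in sh-Ctrl, a change of -0.10 (limma adjusted p = 0.337).

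CEP19, which is brought to the mother centriole by CEP350 and CEP43 and serves cilium formation, had 8.30, 8.65 and 8.46 in sh-PRLR, against 8.88, 8.94 and 8.80 in sh-Ctrl. All sh-PRLR arrays lay below all sh-Ctrl arrays, but the change of -0.41 did not pass (SE 0.12, limma adjusted p = 0.0706). Its other probe set 1553158_at had the same direction without overlap, at 7.65 ± 0.20 in sh-PRLR and 8.17 ± 0.12 in sh-Ctrl (-0.52, limma adjusted p = 0.0900).

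CEP290, a transition zone protein mutated in several ciliopathies, had a change of 0.15 (limma adjusted p = 0.516), and CEP41, which is needed for tubulin glutamylation in cilia, one of -0.13 (limma adjusted p = 0.494). CEP162, which marks the axoneme for the transition zone, had 7.55 ± 0.29 in sh-PRLR and 7.96 ± 0.36 in sh-Ctrl, with overlapping groups. The satellite gene CEP131 (-0.24) and CEP126 (-0.70, SE 0.40), both below the median gene level, did not pass either. CEP78, a regulator of a centrosomal ubiquitin ligase, was level in its brightest probe set, at 9.94 ± 0.02 in sh-PRLR and 9.92 ± 0.02 in sh-Ctrl.

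Of the other 6 genes 0 passed limma, and 0 had an unadjusted p under 0.05. CEP95 (0.14) and CEP112 (-0.08) were bright in the probe sets that stand for them, at levels of 9.83 and 9.18. Of the 3 CEP95 probe sets only this 1 was above 0. All 3 of CEP112 were below 0, and its dim 1557886_at changed by -1.67 without overlap (limma adjusted p = 0.236). CEP15, CEP192P1, CEP72-DT and CEP83-DT lay between 0.54 and 5.32, where the SE of a change ran from 0.43 to 1.55, so that their changes of -0.97 to 0.51 have little precision.

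**Figure D3:**
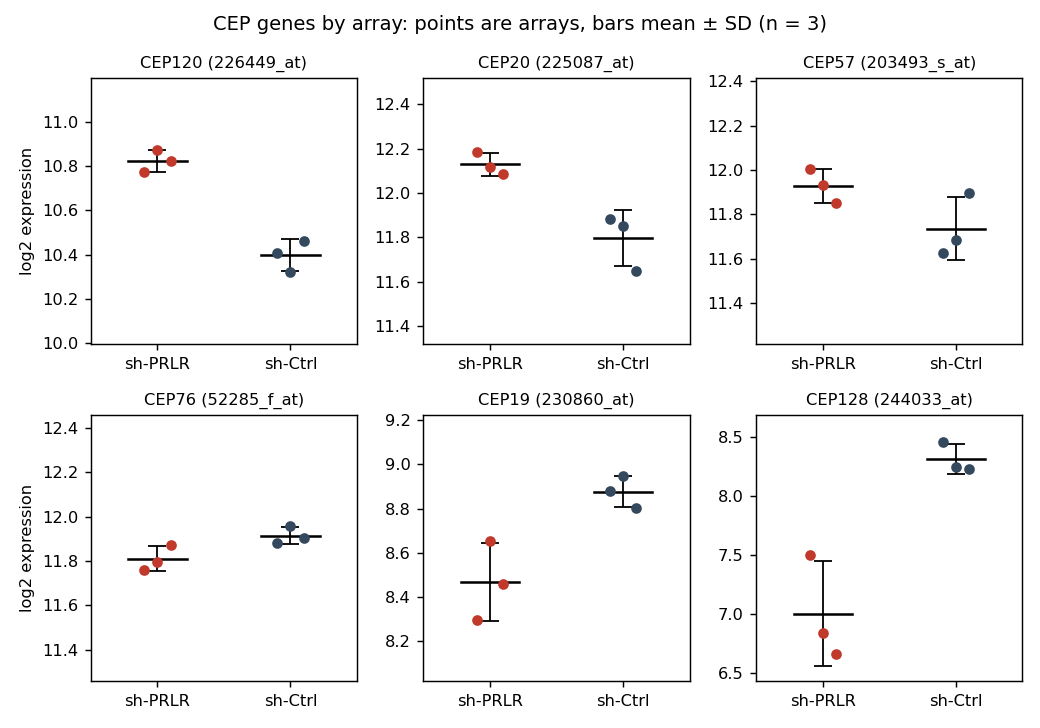
Log2 expression of 6 CEP genes in each array, sh-PRLR left of sh-Ctrl, with bars for the mean ± SD (n = 3); each panel has its own range. The groups are apart in CEP120, CEP20, CEP76, CEP19 and CEP128, and overlap in CEP57, where the third sh-Ctrl array reads 11.90.

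Single probe sets gave a fuller view, since 31 of the 38 genes had several. Probe sets of a gene share their RNA and are not replicates. Of the 112 probe sets 10 passed, 7 higher and 3 lower, or 8.93% against 4.67% of all 41091 probe sets with 1 gene symbol (2.17% higher and 2.5% lower). At or above the median gene level it was 15.6% of 64, against 10.6% of 17151. These 10 belonged to 6 genes, which are CEP20, CEP44, CEP57, CEP78, CEP120 and CEP128. Among the 21 genes with several probe sets at or above that level, 17 had all of these on the same side of 0. With dimmer probe sets counted as well, 16 of the 31 genes did. The like shares over all genes were not examined. CEP44, CEP57 and CEP78 were singled out after their values were seen.

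All 5 probe sets of CEP57 were higher in sh-PRLR, and 3 passed, although the brightest did not. Probe set 209862_s_at read 11.44, 11.49 and 11.48 in sh-PRLR against 11.03, 11.05 and 10.98 in sh-Ctrl (0.45, limma adjusted p = 0.00153). Here the third sh-Ctrl array was the lowest of its group, in contrast to 203493_s_at. The other probe sets that passed were 203492_x_at, with 12.01 ± 0.04 in sh-PRLR and 11.60 ± 0.06 in sh-Ctrl (0.42), and 203494_s_at, with 12.01 ± 0.06 and 11.62 ± 0.05 (0.39). The dimmest, 203491_s_at, changed by 0.32 without passing. With the 5 averaged, CEP57 was higher by 0.35 and passed in the gene fit (limma adjusted p = 0.00713). All 5 are of the _s_at or _x_at kind, whose probes can match several transcripts.

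For CEP44, 231850_x_at passed, with 9.36, 9.63 and 9.44 in sh-PRLR against 8.95, 8.87 and 9.10 in sh-Ctrl (0.51, limma adjusted p = 0.0235). Both of its bright probe sets pointed the same way, the brighter by 0.22. For CEP78, in contrast, probe sets disagreed in size, and the brightest, which was almost level, differed in sign from the rest. Probe set 235919_at read 8.96, 8.77 and 8.96 in sh-PRLR against 9.41, 9.53 and 9.59 in sh-Ctrl, a fall of -0.62 (limma adjusted p = 0.00595), while the brightest, 228774_at, changed by 0.02 and 1557985_s_at by -0.18. Which transcripts these read was not examined.

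For CEP128, 232635_at passed as well, with 7.02, 6.73 and 6.78 in sh-PRLR against 7.81, 7.67 and 7.66 in sh-Ctrl (-0.87, limma adjusted p = 0.0168). The groups were again apart, so both CEP128 probe sets at or above the median gene level fell. Of the dimmer ones 233859_at was higher in the mean, at 6.92 ± 0.22 in sh-PRLR and 6.64 ± 0.35 in sh-Ctrl (0.28, limma adjusted p = 0.647). The remaining pair, 1557756_a_at and 1557755_at, lay near 5 with changes of -0.11 and -0.49 that did not pass.

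**Figure D4:**
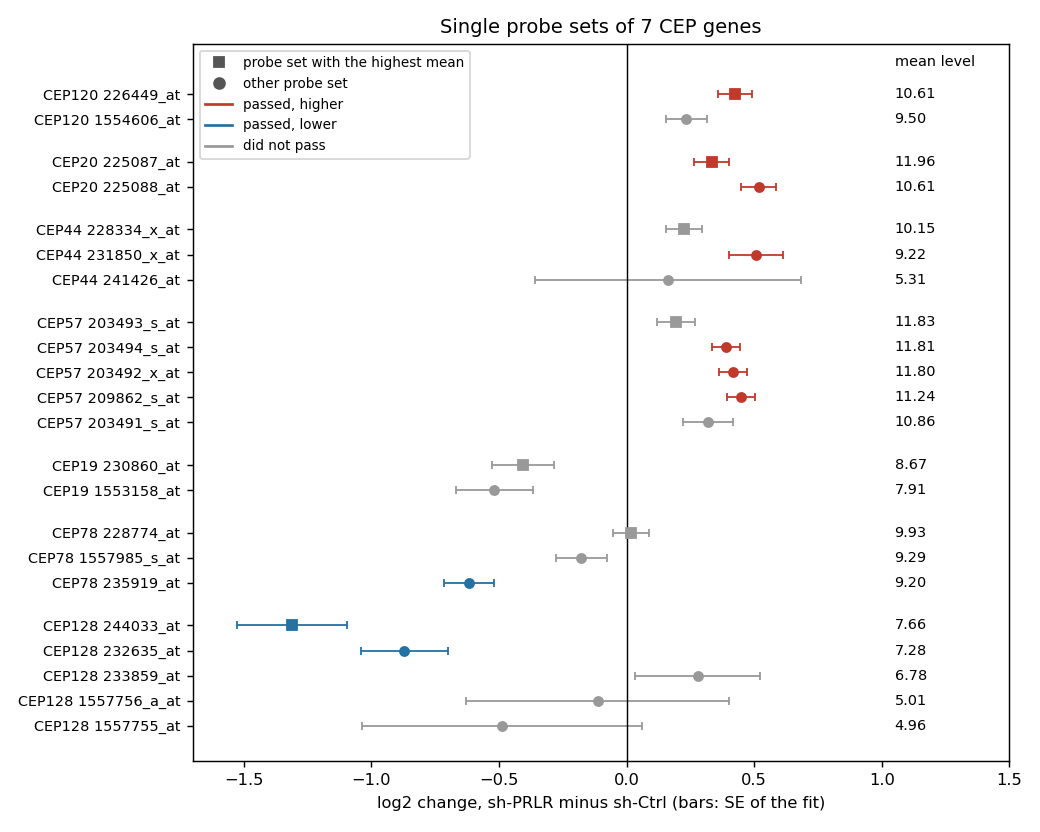
Log2 change (sh-PRLR minus sh-Ctrl) with the SE of the fit for every probe set of 7 CEP genes, with the mean log2 level over 6 arrays at the right. Squares are the brightest probe set of each gene; all 5 of CEP57 lie above 0, and those of CEP78 run from 0.02 to -0.62.

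Partner genes of the centrosome and cilium without a CEP symbol gave 4 rises and 5 falls among 66 measured, which is 13.6% against 7.66% of all genes, and 58 of the 66 lay at or above the median gene level, where 14.6% of genes passed. Their median change was -0.05. Of 12 centriole assembly genes, all at or above the median gene level, 2 fell (16.7%). They were CCP110, which caps centrioles with CEP97, at 10.15 ± 0.02 in sh-PRLR and 10.39 ± 0.01 in sh-Ctrl (-0.24, limma adjusted p = 0.0453), and RTTN, needed for full-length centrioles, at 8.24 ± 0.18 and 8.72 ± 0.09 (-0.48, limma adjusted p = 0.0478). RTTN and CEP120, both elongation genes, thus passed in opposite directions.

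Of 14 genes of the pericentriolar matrix and the gamma-tubulin ring, 2 rose and 1 fell. That is 21.4%, against 14.6% of genes at or above the median gene level, where all 14 lay. The ring subunit TUBGCP4 rose (0.30, limma adjusted p = 0.0463) and its relative TUBGCP3 fell (-0.29, limma adjusted p = 0.0178), while the mitotic kinase gene AURKA rose by 0.26. Of 9 other appendage genes 1 fell, or 11.1%, and 8 did not pass. It was CCDC68, a subdistal appendage protein like CEP128, at 9.31 ± 0.13 in sh-PRLR and 9.69 ± 0.07 in sh-Ctrl (-0.38, limma adjusted p = 0.0348). None of the 4 genes listed under the linker (CROCC, NEK2, LRRC45 and NINL) passed the limma test, and none of 10 satellite and transition zone genes did. In each list 2 had an unadjusted p under 0.05, which were NEK2 and NINL in the linker list. That is 50% of the linker list and 20% of the other, against 20.3% of all genes. At or above the median gene level, where 2 of the 4 and 8 of the 10 lay, it was 33.8% of genes.

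Of 17 genes of intraflagellar transport, which carries cargo along the cilium, 2 rose and 1 fell. That is 17.6%, and 15 of the 17 lay at or above the median gene level, where 14.6% of genes passed. IFT88, a core subunit of the transport complex, had 10.98 ± 0.03 in sh-PRLR and 10.41 ± 0.04 in sh-Ctrl (0.57, limma adjusted p = 0.000469). IFT43 rose by 0.32 (limma adjusted p = 0.0131). KIF3B, a kinesin motor subunit, fell by 0.33 on the log2 scale (limma adjusted p = 0.00981). The list thus held changes in both directions, with a median of -0.11.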

How the data were processed

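RNA from 6 SW-1990 cultures was measured on Affymetrix U133 Plus 2.0 arrays, per the labels. The deposited values are log2 expression, 1 per probe set and array, and the tools listed per the submitters' processing notes are MAS5, RMA and affy, with neither their role nor their version. The linear mean of each array with 2% trimmed from each end was 500, as MAS5 scaling gives, so values were used as deposited. Detection calls were not used, and the number of arrays limits precision.

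Of 54675 probe sets, 41091 had 1 gene symbol in the platform annotation and were no Affymetrix controls. They gave 19775 genes, each at its probe set with the highest mean. The test was two-sided and used limma 3.58.1 (lmFit, then eBayes with trend and robust; R 4.3.3). P-values were adjusted by Benjamini-Hochberg across the 19775 genes, and 0.05 was the threshold. Single probe sets were fitted over all 41091. Default eBayes settings, quantile normalisation, median centring, filters, probe set choice, a replicate block and single arrays left out were tried as alternatives, and the trend and robust settings singly were added after seeing the data. The code of the fit was tested on simulated data with known changes, which does not bear on the choice of variance settings. Figures used matplotlib 3.10.9.

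Members, lists, tests and the rule for named genes were chosen with earlier results of these data known, including that default settings call 4 genes. The rule gives array values for members that pass, that do not overlap with a change of at least 0.3, or that are among the 3 brightest, and names up to 4 passing partners per list. Same-numbered arrays of the groups deviated together at correlations of -0.10 to 0.06, and the labels give no shared culture, so no block was used. No batch is given.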

Additional observations from a re-analysis of the deposited data

How the results depend on the processing

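With eBayes at default settings 0 of 38 CEP genes passed limma, 0 higher and 0 lower, while 6 had an unadjusted p under 0.05, and 0.0202% of all genes passed. The adjusted p values were then 0.109 for CEP120, 0.121 for CEP128 and 0.196 for CEP20. Of 2 settings added after seeing the data, eBayes with the trend but not robust gave 3 calls, the same 3 genes, with 8.09% of all genes, and robust without the trend gave 0, 0 higher and 0 lower, with 0% of all genes and 6 CEP genes at an unadjusted p under 0.05. Without the 40% of genes with the lowest mean 5 of 34 passed, 2 of them lower, as CEP19 and CEP44 were added. Of the 11865 genes kept 17.1% passed. With all probe sets of a gene averaged 0 passed as lower, and the 3 that passed were CEP120, CEP20 and CEP57. Of all genes 3.08% passed then. Leaving out single arrays gave 2 to 3 calls, 1 to 2 of them higher and 1 lower, with 3.36% to 6.69% of all genes. The call that was lost was CEP20, without sh-PRLR replicate 2. CEP120 ranged from 0.33 to 0.47, CEP20 from 0.26 to 0.43 and CEP128 from -1.56 to -0.50 over 15 alternatives. CEP19, CEP57 and CEP76 were followed as well, and none of these 6 genes changed direction. The other members were not followed. With all probe sets averaged some of them changed sign, such as CEP152 (-0.23 at its brightest probe set, 0.10 averaged) and CEP78 (0.02 and -0.26). With the replicate block 3 passed, the same 3 genes, and 5.51% of all genes did. The replicate numbers pair no samples by their deviations. The median of the family ran from -0.06 to 0.05. The upper end came with median centring, where the median of all genes was 0.05 as well. The lower end came without sh-PRLR replicate 3, where the median of all genes was -0.01. Signal limits the dim genes, whose replicates scatter most.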

Other observations

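The 3 probe sets that match both CEP170, a subdistal appendage gene, and its pseudogene CEP170P1 belong to no comparison above, and none passed limma over all 54613 probe sets. Probe set 207719_x_at, the brightest, had 11.14 ± 0.07 in sh-PRLR and 10.97 ± 0.06 in sh-Ctrl, with no overlap (0.17, limma adjusted p = 0.234). The other probe sets, 212746_s_at and 1552717_s_at, changed by 0.13 and 0.05.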
